A study of Rattus norvegicus with 6 samples.

Results

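Glypicans, syndecans and agrin are the cell-surface and matrix proteins that carry heparan sulfate chains on neurons and glia. Their mRNA was examined in purified rat retinal ganglion cell neurons (RGCs), because one of them, glypican 4, was the protein added to the cells. The genes are Gpc1, Gpc2, Gpc3, Gpc4, Gpc6, Sdc1, Sdc2, Sdc3, Sdc4 and Agrn. Every probe set whose platform symbol is exactly one of these 10 names was taken, which gave 19 of the 31042 probe sets and 10 of the 14217 genes on the array. Each probe set holds several short probes for 1 transcript. All 19 kept the same symbol when their gene identifiers were looked up in the RefSeq gene table. Gpc5 has no probe set under its own name in the annotation and was not analysed here.

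The 6 arrays carried RNA from 3 groups of 2. In the group called Gpc4, RGCs received His-tagged glypican 4 protein, which transfected HEK293 cells (a line from human embryonic kidney) had secreted and which was captured on nickel beads. In the group called TSP1 they received recombinant mouse thrombospondin 1. The group called Alone was left without added protein. In all 3 groups the RGCs came from rats of postnatal day 6 and had been kept for 12 days in medium with BDNF and CNTF. The treatment lasted 12 hours, and RNA of 2 wells was pooled for each array. According to the methods, RGCs were selected on an antibody-coated dish from pooled pups of both sexes, the culture medium held an inhibitor of dividing cells, and the whole experiment was done on 2 separate RGC cultures. The labels number the arrays of each group 1 and 2 without saying that the number stands for a culture. No array of a mock protein purification was analysed here.

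A heparan sulfate proteoglycan is a core protein with long sulfated sugar chains, and much of its binding to growth factors, receptors and matrix goes through these chains. Glypicans are tethered to the outer membrane by a lipid anchor and can be released from it. Syndecans span the membrane, and enzymes can shed their outer part. Agrin is a large secreted proteoglycan that gathers acetylcholine receptors at the neuromuscular junction. In the brain, astrocytes release glypicans 4 and 6, and receptor protein tyrosine phosphatases on axons bind heparan sulfate proteoglycans.

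The 250 bases before the annotated start are printed for Gpc4, the gene of the added protein, and for Sdc4, which differed between replicates. No window was used for Sdc2, Gpc1 or Gpc6, which the promoter table does not list. They are from RefSeq on assembly GRCr8, each on the gene's own strand, at chrX:136676058-136676307 (minus strand) for Gpc4 and chr3:173592924-173593173 (minus strand) for Sdc4. Capitals mark the GC box GGGCGG or its reverse complement.
Gpc4: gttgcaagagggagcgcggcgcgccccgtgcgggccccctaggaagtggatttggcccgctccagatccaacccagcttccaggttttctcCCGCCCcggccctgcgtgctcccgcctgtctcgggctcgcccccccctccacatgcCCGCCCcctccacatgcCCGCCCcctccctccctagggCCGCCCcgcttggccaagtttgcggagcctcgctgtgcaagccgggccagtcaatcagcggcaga
Sdc4: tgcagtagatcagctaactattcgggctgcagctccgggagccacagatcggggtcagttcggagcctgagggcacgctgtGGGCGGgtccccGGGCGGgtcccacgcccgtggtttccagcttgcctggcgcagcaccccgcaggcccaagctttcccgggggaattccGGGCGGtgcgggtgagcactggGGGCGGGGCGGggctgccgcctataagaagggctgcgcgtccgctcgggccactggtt
G and C made up 71.6% of the Gpc4 window and 70.0% of the Sdc4 window. The GC box occurred 4 times before Gpc4 and 5 times before Sdc4, where the last 2 copies overlap. It was searched on both strands, and 30.5% of 33469 rat promoter windows of the same length hold at least 1 copy. Of the 7 genes of the family with a window, Gpc2 had 2 copies, Gpc3 and Sdc3 had 4 each, Sdc1 had 3 and Agrn had 0. The AP-1 letters TGANTCA, present in 6.34% of all windows, were found in none of the 7. The same held for the E box CACGTG, present in 5.59%, and for TATAAA, the element that sets the start in some promoters, present in 12.9%.

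The values are log2 expression values on the scale of the deposited table, so a difference of 1 is a 2-fold difference in signal. Array medians lay between 5.96 and 5.99, and since the table holds no detection call, a value below these medians is not shown to be above background. Of the 19 probe sets, 9 were above the median on all 6 arrays, 6 were below it on all 6, and 4 lay on both sides. In the 9 are 8 of the 10 genes. Gpc3 was below on all arrays and Gpc4 was above on 4. Arrays of 1 group differed by a median of 0.10 (Gpc4) or 0.11 (TSP1 and Alone) over all probe sets. Of 12 measured RGC markers, all 12 were above the median on every array, with a list mean of 11.99 to 12.05. Of 9 astrocyte markers, 6 were below it on every array, Gfap and Aldh1l1 among them, and 2, Aldoc and Slc1a3, were above it. Also above it on every array were 4 of 5 Müller glia markers and 4 of 8 fibroblast and pericyte markers. In the sentences that follow, each group's value is given for replicate 2 and then for replicate 1.

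**Figure D1:**
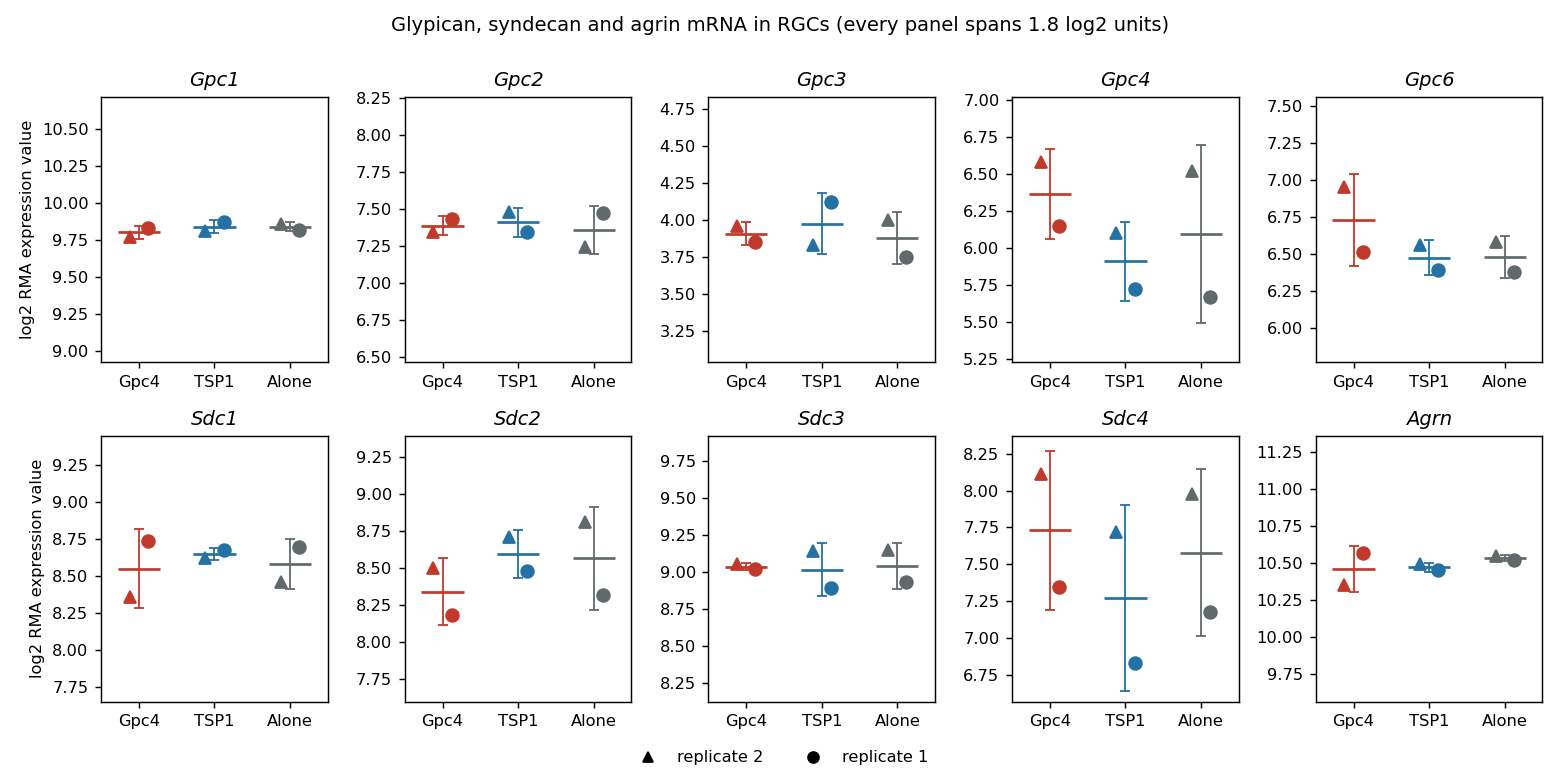
Log2 RMA expression value of each gene on each array, by group (Gpc4, TSP1, Alone), for its probe set with the highest mean. Triangles are replicate 2, circles replicate 1, lines group means and bars SDs (n = 2); all panels span the same number of log2 units, so the vertical spread can be compared between panels but the level cannot. Triangles lie above circles in every group for Gpc4, Gpc6, Sdc2, Sdc3 and Sdc4.

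Among the glypicans, Gpc1, the glypican known from adult neurons, hardly varied. It was at 9.77 and 9.83 with Gpc4, 9.81 and 9.87 with TSP1, and 9.86 and 9.82 in Alone. All 6 arrays lay within 0.10 on the log2 scale, and the groups overlapped. Gpc2, known in rats as cerebroglycan and as a glypican of developing neurons, was at 7.34 and 7.43 with Gpc4, 7.48 and 7.34 with TSP1, and 7.24 and 7.47 in Alone. Its order among the groups differed between the replicates. Gpc3, whose loss causes an overgrowth syndrome in humans, gave values of 3.75 to 4.12 on its 2 probe sets, all below the array medians.

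Gpc4, the gene of the protein added to one of the groups, varied most among the glypicans. Its single probe set, 1392888_at, read 6.58 and 6.15 with Gpc4, 6.10 and 5.72 with TSP1, and 6.52 and 5.67 in Alone. Both TSP1 arrays were below both Gpc4 arrays, and the Alone arrays spread across the range of the others. The lowest values were those of replicate 1 with TSP1 and in Alone. Gpc6, the closest relative of Gpc4 among the glypicans, was at 6.95 and 6.51 with Gpc4, 6.56 and 6.39 with TSP1, and 6.58 and 6.38 in Alone on probe set 1372820_at. Replicate 2 with Gpc4 stood above the other 5 arrays. Its other 3 probe sets were between 4.35 and 4.77 on all arrays, below the medians, and did not show this order.

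Among the syndecans, Sdc1, best known from epithelia and plasma cells, was at 8.36 and 8.74 with Gpc4, 8.62 and 8.68 with TSP1, and 8.46 and 8.70 in Alone on 1367849_at. All replicate 2 arrays were below all replicate 1 arrays. Its second probe set, 1376062_at, read 5.69 and 6.13 with Gpc4, 6.04 and 6.24 with TSP1, and 6.29 and 6.28 in Alone, with both Gpc4 arrays and both TSP1 arrays below both Alone arrays. These values are near the array medians.

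Sdc2, which promotes the maturation of dendritic spines in cultured rat hippocampal neurons and is also abundant in mesenchymal cells, has 3 probe sets. On 1382189_at it was at 8.50 and 8.18 with Gpc4, 8.71 and 8.48 with TSP1, and 8.81 and 8.32 in Alone. On 1370167_at the values were 6.95 and 6.60 with Gpc4, 7.30 and 6.59 with TSP1, and 7.24 and 6.58 in Alone. On 1370166_at they were 6.46 and 5.75 with Gpc4, 6.82 and 5.92 with TSP1, and 6.82 and 5.95 in Alone. On each of the 3 the lowest replicate 2 value was above the highest replicate 1 value, and the Gpc4 group had the lowest mean.

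Sdc3, the syndecan of axons, was at 9.05 and 9.02 with Gpc4, 9.14 and 8.89 with TSP1, and 9.15 and 8.93 in Alone on 1372180_at. Its 2 dimmer probe sets lay between 5.33 and 6.09 and were on average lower in replicate 2. Sdc4, a syndecan of focal adhesions that binds fibronectin, was at 8.11 and 7.35 with Gpc4, 7.72 and 6.83 with TSP1, and 7.98 and 7.18 in Alone. Within each replicate the order was Gpc4 highest and TSP1 lowest, yet every replicate 2 array stood above every replicate 1 array. Agrn was at 10.35 and 10.57 with Gpc4, 10.49 and 10.45 with TSP1, and 10.55 and 10.52 in Alone. Both TSP1 arrays were just below both Alone arrays, and the Gpc4 arrays lay on either side of them.

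Whether the added proteins changed these mRNAs was tested with limma, a linear model that shares the spread across probe sets, over all 31042 probe sets with Benjamini-Hochberg adjustment. Only an adjusted p under 0.05 counted as a change. Between Gpc4 and Alone, 0 of the 19 probe sets changed, against 0.0838% of all probe sets (26, all of them higher). Between TSP1 and Alone 0 of 19 changed, against 0% of all, and between Gpc4 and TSP1 0 of 19 changed, against 0.0612% of all (19, all higher). The lowest adjusted p among the 19 was 0.72 for Gpc4 against Alone, 0.98 for TSP1 against Alone and 1.00 for Gpc4 against TSP1. At these backgrounds a count of 0 in 19 says little by itself. With the replicate number as a block the counts stayed at 0, with backgrounds of 0.206%, 0.0129% and 0.258% and lowest adjusted p-values of 0.40, 0.67 and 0.17.

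**Figure D2:**
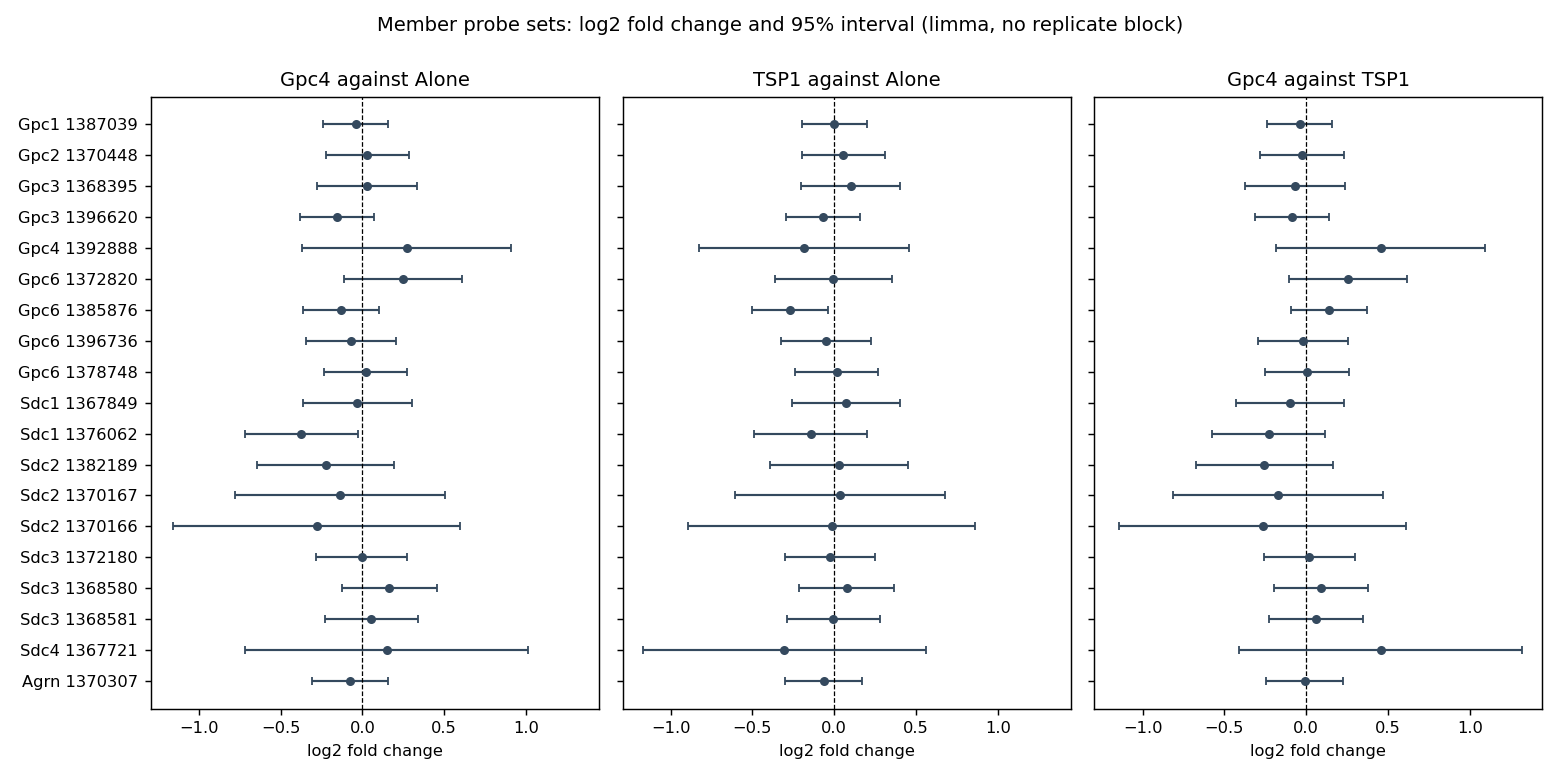
Log2 fold change of each of the 19 probe sets in the 3 comparisons between groups (limma without a replicate block). Points are fold changes and bars 95% intervals; all but 1 of the intervals in the left panel (Sdc1 1376062_at) and all but 1 in the middle panel (Gpc6 1385876_at) include 0, and those of Sdc4, Sdc2 1370166_at and Gpc4 are among the widest.

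How narrowly a change was bounded differed between genes. For Gpc1 the log2 fold change was -0.04 with a 95% interval of -0.24 to 0.16 for Gpc4 against Alone, and 0.00 with an interval of -0.20 to 0.20 for TSP1 against Alone. For Agrn it was -0.075 (-0.31 to 0.16) and -0.065 (-0.30 to 0.17), and for Sdc3 on 1372180_at -0.005 (-0.28 to 0.27) and -0.025 (-0.30 to 0.25). A 2-fold change of these 3 genes lies outside the intervals. For Sdc4 the log2 fold change was 0.15 with an interval of -0.72 to 1.02 for Gpc4 against Alone and -0.305 with an interval of -1.17 to 0.56 for TSP1 against Alone. These intervals include a 2-fold change. With the replicate block they were -0.05 to 0.35 and -0.51 to -0.10, which do not include one.

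The mRNA of the added protein's own gene differed by 0.27 on the log2 scale between Gpc4 and Alone (1.21-fold, 95% interval 0.774-fold to 1.88-fold, adjusted p = 0.89 from limma). The difference was 0.06 in replicate 2 and 0.48 in replicate 1. Between TSP1 and Alone it was -0.185 (adjusted p = 0.99), with opposite signs in the replicates, -0.42 and 0.05. Between Gpc4 and TSP1 it was 0.455 (1.37-fold, interval 0.88-fold to 2.14-fold, adjusted p = 1.00), with 0.48 in replicate 2 and 0.43 in replicate 1. With the replicate block the interval of this difference narrowed to 0.16 to 0.75 and the adjusted p was 0.45.

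Sdc4 showed the same difference of 0.455 between Gpc4 and TSP1, with 0.39 in replicate 2 and 0.52 in replicate 1 (limma adjusted p = 1.00, and 0.17 once the replicate number was a block). Against Alone it was 0.15 with Gpc4, from 0.13 and 0.17, and -0.305 with TSP1, from -0.26 and -0.35. Gpc6 on 1372820_at was higher by 0.25 with Gpc4 than in Alone, from 0.37 and 0.13 (adjusted p = 0.80). Its difference between TSP1 and Alone was -0.005. Neither gene passed the test in any of these comparisons.

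Sdc2 lay on the other side, with -0.225, -0.135 and -0.28 on its 3 probe sets for Gpc4 against Alone (adjusted p = 0.85, 0.96 and 0.93 from limma). With the replicate block the adjusted p-values were 0.53, 0.75 and 0.42, so none passed. The 95% interval on 1370166_at was -1.16 to 0.60 without the block and -0.49 to -0.07 with it, while those of the other probe sets included 0 with the block. For TSP1 against Alone the 3 probe sets of Sdc2 gave 0.03, 0.035 and -0.015. For Sdc1, the dimmer probe set 1376062_at had the lowest value of the 19 for Gpc4 against Alone, -0.375 (95% interval -0.72 to -0.03, adjusted p = 0.72), from -0.60 in replicate 2 and -0.15 in replicate 1. The brighter probe set of Sdc1 gave -0.03 (95% interval -0.36 to 0.30), and the difference between the 2 probe sets was not tested. The comparisons against Alone share their 2 Alone arrays.

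At an unadjusted p under 0.05, 1 of 19 probe sets stood out for Gpc4 against Alone (Sdc1 1376062_at), 1 for TSP1 against Alone (Gpc6 1385876_at, log2 fold change -0.27, below the array medians) and 0 for Gpc4 against TSP1. Over all probe sets the shares were 6.88%, 4.40% and 4.51%. With the replicate block, where same-numbered arrays are compared, the counts were 3, 2 and 5 of 19, against 9.44%, 6.69% and 6.62%. The 5 between Gpc4 and TSP1 belong to Gpc4, Gpc6, Sdc4 and Sdc2, with the Sdc2 probe sets lower and the others higher with Gpc4. The methods' t-test gave 0 of 19 in each comparison, also without adjustment, where it called 1704, 1280 and 1433 of all 31042 probe sets.

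The 2 arrays of each group did not overlap for 3 of 19 probe sets in each comparison, against 35.0% of all probe sets for Gpc4 against Alone, 29.8% for TSP1 against Alone and 30.2% for Gpc4 against TSP1. All 3 were lower with Gpc4 than in Alone (18.9% of all probe sets, with 16.0% higher), all 3 were lower with TSP1 than in Alone (15.6%, with 14.3% higher), and all 3 were higher with Gpc4 than with TSP1 (14.6%, with 15.5% lower). The median size of the log2 fold change over the 19 was 0.13 for Gpc4 against Alone, 0.055 for TSP1 against Alone and 0.09 for Gpc4 against TSP1. Over all probe sets it was 0.085, 0.08 and 0.07.

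The larger differences lay between the replicate numbers. Replicate 2 was compared with replicate 1 in limma with the group as a covariate, which is the mean of the 3 differences within groups. This is the fit with the replicate block, which made more false calls between groups in simulated data than its threshold allows. Sdc4 and Sdc2 mRNA was higher in replicate 2, by 3 of 19 probe sets (15.8%), all of them higher. Over all probe sets 0.561% changed (174), of which 0.432% were higher and 0.129% lower. At an unadjusted p under 0.05 it was 7 of 19, against 11.3%. The median size of the difference was 0.17 over the 19 and 0.073 over all probe sets.

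Sdc4 averaged 7.94 ± 0.20 in replicate 2 and 7.12 ± 0.27 in replicate 1 (SD, n = 3 each), a difference of 0.82 on the log2 scale (1.76-fold, 95% interval 1.57-fold to 1.98-fold, adjusted p = 0.0037 from limma). It was 0.76 with Gpc4, 0.89 with TSP1 and 0.80 in Alone. Here and for the genes below, the arrays of a replicate number are from different groups and were taken as the same culture. The SDs, intervals and p-values therefore do not measure the spread between cultures. Sdc2 on 1370166_at averaged 6.70 ± 0.21 in replicate 2 and 5.87 ± 0.11 in replicate 1, a difference of 0.83 (1.77-fold, interval 1.57-fold to 2.00-fold, adjusted p = 0.0042), with 0.71, 0.90 and 0.87 in the groups in the same order. Its 3 values in replicate 1 lie below the array medians. On 1370167_at Sdc2 differed by 0.57 (adjusted p = 0.046), with 0.35, 0.71 and 0.66. On the brightest, 1382189_at, the difference was 0.35 (adjusted p = 0.17), which did not pass. The 3 probe sets of Sdc2 share a direction and differ in size.

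The Gpc4 gene averaged 6.40 ± 0.26 in replicate 2 and 5.85 ± 0.26 in replicate 1 (SD, n = 3 each), a difference of 0.55 (1.47-fold, 95% interval 1.24-fold to 1.73-fold, adjusted p = 0.09 from limma). It did not pass over all probe sets, and it passed when dim probe sets, whose log2 values average under 6, were left out (adjusted p = 0.044). The difference was 0.43 with Gpc4, 0.38 with TSP1 and 0.85 in Alone. Gpc6 on 1372820_at differed by 0.27 (adjusted p = 0.29), with 0.44, 0.17 and 0.20. Sdc1 averaged lower in replicate 2 on its 2 probe sets. On 1367849_at the difference was -0.23 (adjusted p = 0.38 from limma), with -0.38, -0.06 and -0.24 in the groups in the same order. On 1376062_at it was -0.21 (adjusted p = 0.46), with -0.44, -0.20 and 0.01, and the replicates overlapped. Gpc1 (-0.03), Agrn (-0.05) and Gpc2 (-0.06) lay close to 0.

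**Figure D3:**
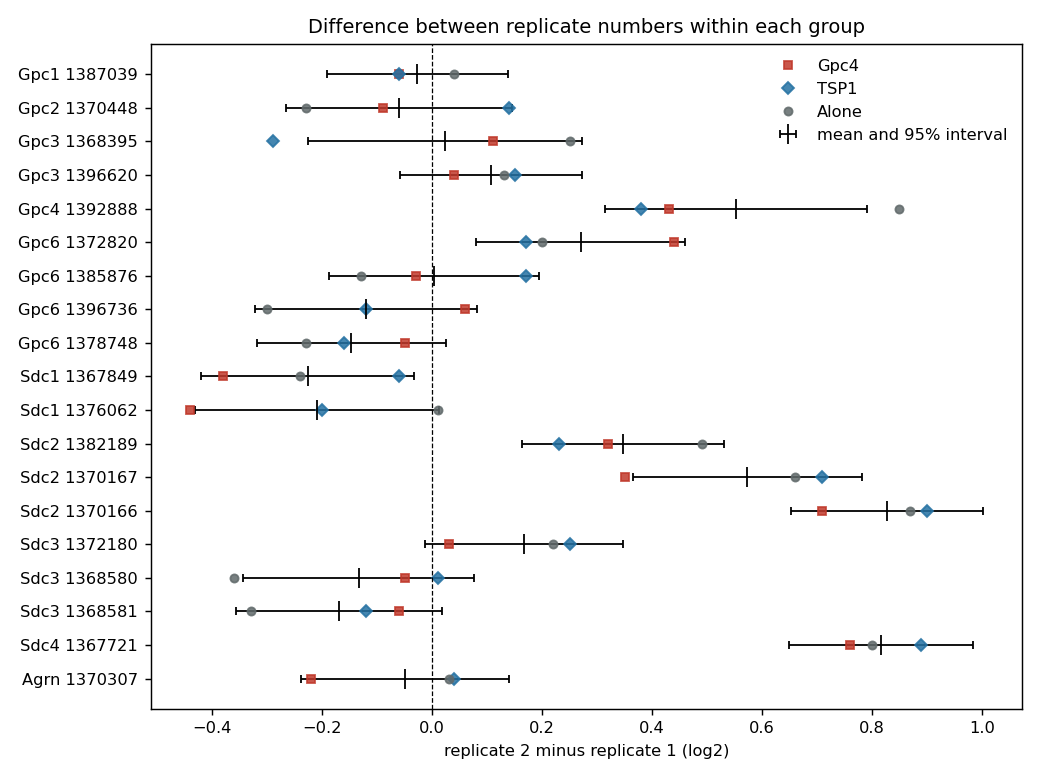
Difference in log2 value between replicate 2 and replicate 1 within each group (squares, Gpc4; diamonds, TSP1; circles, Alone) for the 19 probe sets, with the limma mean and its 95% interval. For Sdc4 and Sdc2 1370166_at all 3 points lie above 0.7, whereas those of Gpc1, Gpc2 and Agrn lie on both sides of 0.

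For 9 of the 19 probe sets the 3 replicate 2 arrays did not overlap with the 3 replicate 1 arrays, against 14.1% of all. Of these, 6 were higher in replicate 2 (6.26% of all) and 3 were lower (7.87%). The 6 are the 3 of Sdc2 and 1 each of Sdc4, Gpc6 and Sdc3, and the 3 are 1 each of Sdc1, Sdc3 and Gpc6. Differences had 1 sign in all 3 groups for 8 higher probe sets (13.9% of all) and 3 lower ones (17.5%). Leaving out any 1 array, which takes its group out of this comparison, left 1 residual degree of freedom and no probe set on the array past the threshold. Sdc4 then differed by 0.78 to 0.85 and Sdc2 on 1370166_at by 0.79 to 0.89, with adjusted p-values of 0.52 to 0.73 and 0.48 to 0.73. The calls need all 3 groups.

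Markers of other cell types moved with the replicate number as well. Over all probe sets, 0.432% were higher in replicate 2 and 0.129% lower. Of 8 fibroblast and pericyte markers, 3 were higher in replicate 2 and the others did not pass. The 3 are Dcn (1.54, adjusted p = 0.010 from limma), Lum (1.79, adjusted p = 0.0031) and Postn (0.71, adjusted p = 0.0061). The list mean lay between 7.03 and 7.41 on the replicate 2 arrays and between 6.20 and 6.58 on the replicate 1 arrays. Pdgfrb was below the array median on all 6, and Lum on all 3 replicate 1 arrays (5.26 with Gpc4, 3.49 with TSP1 and 4.68 in Alone), so its difference is set against values not shown to be above background. Of 7 microglial markers, the complement genes C1qa (-0.99, adjusted p = 0.022) and C1qb (-1.09, adjusted p = 0.0066) were lower in replicate 2. Their list mean was 5.06 to 5.23 in replicate 2 and 5.57 to 5.79 in replicate 1, with Csf1r, Itgam and Cd68 below the median on all arrays and C1qa and C1qb below it on all 3 replicate 2 arrays. Of 5 markers of Müller glia, 1 was higher, 1 was lower and 3 did not pass. Vim, an intermediate filament gene of mesenchymal and glial cells, was higher by 0.80 (adjusted p = 0.0047), and Apoe, a lipoprotein gene of glia, differed by -1.03 (adjusted p = 0.0016). Of 5 markers of other retinal neurons, Gad1, which makes the transmitter GABA, was higher by 0.61 (adjusted p = 0.016), and the others (Prox1, Crx, Rcvrn and Tfap2a) lay between -0.29 and 0.0067 and did not pass. Of 12 RGC markers, 9 astrocyte markers, 4 endothelial markers and 6 oligodendrocyte lineage markers, 0 changed. With the replicate block, Lum (1.95, adjusted p = 0.0086 from limma) and Dcn (1.77, adjusted p = 0.026) were higher with Gpc4 than with TSP1. Postn (-0.87, adjusted p = 0.013) was lower with Gpc4. The others of the 8 fibroblast and pericyte markers did not pass, and 0.258% of all probe sets passed in this comparison. Lum and Dcn were below the array medians on both TSP1 arrays. The fit with the block made more false calls in simulated data than its threshold allows. Postn was higher with TSP1 than in Alone (0.99, adjusted p = 0.040), and Kdr, a VEGF receptor gene and endothelial marker, was higher with Gpc4 than with TSP1 (1.13, adjusted p = 0.017), while the other 3 endothelial markers measured, Pecam1, Tek and Cldn5, were below the array medians on all arrays and did not pass. According to the methods, a lectin-coated dish meant to remove microglia and fibroblasts preceded the selection of RGCs. The part of these markers in the differences of Sdc4 and Sdc2 was not tested. In RNA of whole wells, more cells of a type and more RNA per cell cannot be told apart.

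**Figure D4:**
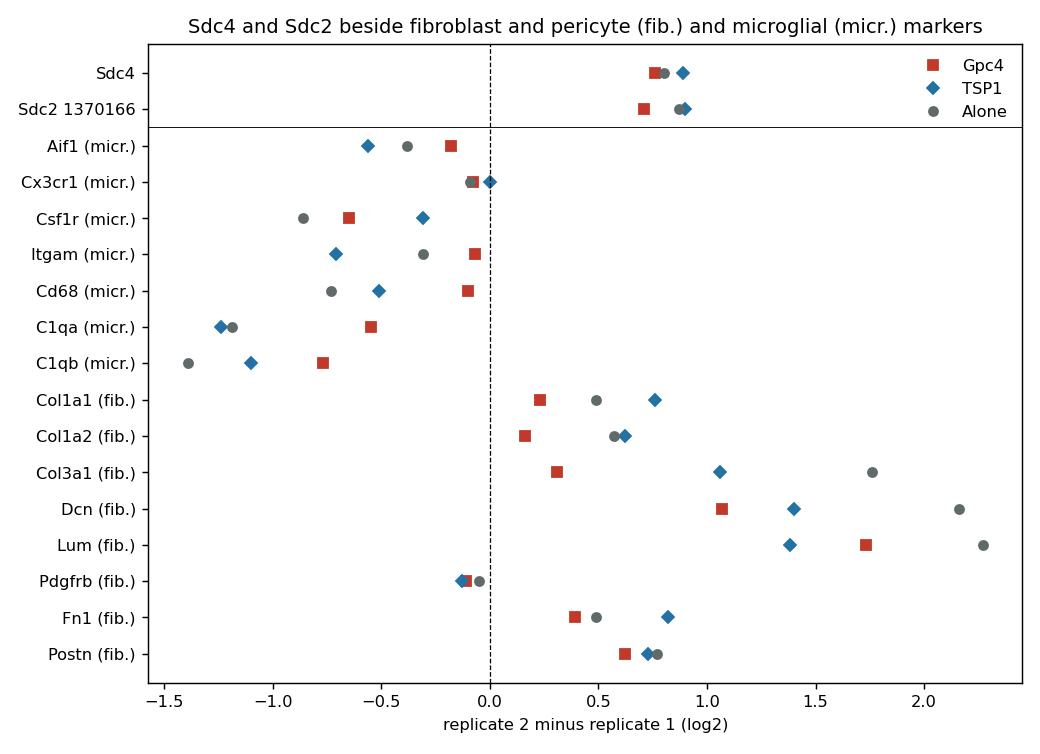
Difference in log2 value between replicate 2 and replicate 1 within each group for Sdc4, Sdc2 (1370166_at) and the markers of fibroblasts and pericytes (fib.) and of microglia (micr.). Squares are Gpc4, diamonds TSP1 and circles Alone; Dcn and Lum lie above 1 in every group and C1qa and C1qb below -0.5.

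The genes whose values followed those of Sdc4 and Gpc4 most closely over the 6 arrays were listed as a description. The arrays are few, and those of the same number were taken as sharing a culture. Sdc4 spanned 1.28 log2 units, and 1063 named probe sets of other genes spanned at least 0.64. Of these the closest were Ccn3 (Pearson r = 0.995), which encodes a matricellular protein, Gbp2 (0.992), an interferon-induced GTPase, S100a6 (0.990), a calcium-binding protein, and Mgp (0.988), an inhibitor of calcification. Their values in replicate 2 exceeded those in replicate 1 by 0.92, 1.28, 1.61 and 1.09 on the log2 scale on average, which the choice of genes that follow Sdc4 largely fixes, so no test is given. The Gpc4 gene spanned 0.91, and 3372 named probe sets of other genes spanned at least 0.455. Of these the closest were Sox2 (r = 0.988), a transcription factor of neural progenitors and glia, and Cp (0.982), which encodes ceruloplasmin. Next were Efemp2 (0.976), an elastic fibre protein, and Pla2g4a (0.971), a phospholipase. In this order, the genes differed between replicates by 0.64, 0.63, 0.30 and 0.70, and between Gpc4 and Alone by 0.305, 0.51, 0.09 and 0.43. The choice of genes that follow the Gpc4 gene largely fixes these values as well, so no test is given.

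The rest of the pathway was described with lists, each gene by its brightest probe set. Without the block, 0 of 5 glypicans, 0 of 4 syndecans, 0 of 9 other core proteins, 0 of 15 genes of linker and chain synthesis, 0 of 12 of chain modification, 0 of 13 of editing, shedding and turnover, 0 of 10 partners and 0 of 9 chondroitin sulfate core proteins passed for Gpc4 against Alone. The same counts of 0 held for TSP1 against Alone and for Gpc4 against TSP1. Median log2 fold changes for Gpc4 against Alone lay between -0.10 (partners) and 0.035 (chondroitin sulfate core proteins), beside -0.005 over all probe sets. The largest shift of a list median for TSP1 against Alone was -0.12, in the chondroitin sulfate core proteins.

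**Figure D5:**
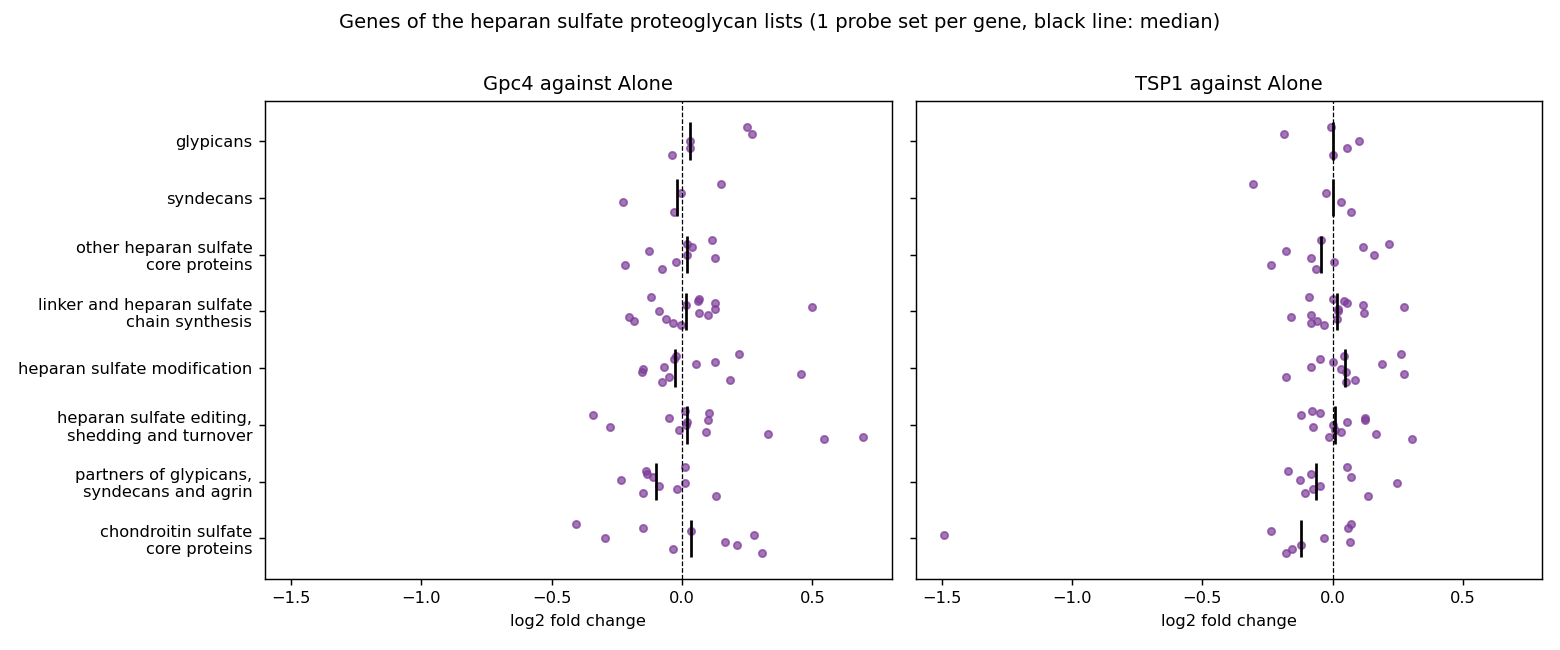
Log2 fold change of the genes of each pathway list, 1 probe set per gene, for Gpc4 against Alone and TSP1 against Alone. The lists include partners and chondroitin sulfate core proteins, to which Dcn belongs. Points are genes and black lines list medians; the rightmost point in the left panel is Adam17 at 0.695 and the leftmost in the right panel is Dcn at -1.49.

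In the list of shedding enzymes, Adam17, a membrane protease that can shed syndecans, came closest to the threshold. It was at 7.19 and 7.25 with Gpc4, 6.54 and 6.48 with TSP1, and 6.50 and 6.55 in Alone. Both Gpc4 arrays were above the other 4, which lay within 0.07 of each other. Of all probe sets, 16% had both Gpc4 arrays above both Alone arrays, and 14.6% above both TSP1 arrays. The log2 fold change was 0.695 for Gpc4 against Alone (1.62-fold, limma adjusted p = 0.053, and 0.033 once the replicate number was a block) and 0.71 for Gpc4 against TSP1 (adjusted p = 0.058, 0.026 with the block), while TSP1 against Alone gave -0.015. With the block Adam17 passed in both comparisons, as the only gene of its list, beside backgrounds of 0.206% and 0.258%. In simulated data, the fit with the block made more false calls than its threshold allows. Adam17 also passed in both when dim probe sets were left out (limma adjusted p = 0.022 and 0.023). Averaging the probe sets of each gene gave 0.026 and 0.025, and quantile normalization gave 0.046 against Alone. Adam17 did not pass with median centring, a trended variance, a fit to only the 2 groups compared or the methods' t-test after adjustment. Leaving out any 1 array put it above the threshold, with adjusted p-values of 0.15 to 0.55 against Alone and 0.15 to 0.60 against TSP1. Adam10, a related sheddase, was at 5.51 and 5.61 with Gpc4, against 4.81 and 5.22 in Alone (0.545, adjusted p = 0.59), below the array medians. Gpld1, which encodes a phospholipase that cleaves lipid anchors of the kind that glypicans have, was at 6.18 and 6.09 with Gpc4, against 5.75 and 5.86 in Alone (0.33, adjusted p = 0.54).

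Among the genes of chain synthesis and modification, Pxylp1, a phosphatase of the linker xylose, was at 6.38 and 6.09 with Gpc4, 6.08 and 5.94 with TSP1, and 5.85 and 5.62 in Alone. Its log2 fold change was 0.50 for Gpc4 against Alone (adjusted p = 0.51 from limma) and 0.275 for TSP1 against Alone (adjusted p = 0.98). Hs3st2, a 3-O-sulfotransferase enriched in brain, was at 7.88 and 7.75 with Gpc4, 7.77 and 7.50 with TSP1, and 7.34 and 7.38 in Alone. Its values were 0.455 (adjusted p = 0.47) and 0.275 (adjusted p = 0.98). For both genes all 4 treated arrays were above both Alone arrays. Of all probe sets, 16% were higher without overlap for Gpc4 against Alone and 14.3% for TSP1 against Alone. The share with both was not counted. Pxylp1 was below the array medians on both Alone arrays and on replicate 1 with TSP1. Ext2, a subunit of the chain polymerase, had -0.205 for Gpc4 against Alone (adjusted p = 0.72), and Naglu, a lysosomal enzyme that degrades heparan sulfate, had -0.34 (adjusted p = 0.57).

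Other enzymes of the pathway stayed closer to 0, and none of them passed. For Gpc4 against Alone, B4galt7, which adds a galactose of the linker, had -0.185, Hs2st1, the 2-O-sulfotransferase, 0.185, and Papss2, which makes the sulfate donor, 0.22 at levels of 3.70 to 4.12, below the array medians. For TSP1 against Alone, Papss2 had 0.26, Hs6st2, a 6-O-sulfotransferase, 0.19, Extl2, a transferase of the chain's start, 0.12, Ext2 -0.16, Adam10 0.305, Gpld1 0.165 and Mmp9, a secreted protease, 0.125, all with an adjusted p of 0.98 or 0.99 from limma. For Gpc4 against TSP1, the 3-O-sulfotransferase genes Hs3st5, Hs3st2 and Hs3st6 had -0.205, 0.18 and -0.18. Extl1 had 0.185, Fam20b, the kinase of the linker xylose, 0.105, Adam10 0.24 and Naglu -0.22 (adjusted p = 1.00 for each). Between the replicates, Ext1, the partner of Ext2 in the polymerase, differed by 0.22 (adjusted p = 0.35 from limma) and Hs3st1 by 0.15 (adjusted p = 0.52). Mmp9 differed by -0.31 (adjusted p = 0.21), Adam10 by -0.28 (adjusted p = 0.28) and Hpse, the heparanase, by -0.15 (adjusted p = 0.48). Hs6st2, Extl1, Hs3st6, Mmp9, Adam10 and Hpse were below the array medians on every array.

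The receptor phosphatases that bind these proteoglycans gave -0.14 (Ptprs), -0.11 (Ptprd) and -0.135 (Ptprf) for Gpc4 against Alone, with adjusted p-values of 0.83, 0.86 and 0.82. Agrin's receptor parts Lrp4 and Musk were below the array medians on every array, with values of 5.12 to 5.61 and 3.78 to 4.07. Lrp4 had 0.245 for TSP1 against Alone (adjusted p = 0.98), and Musk had -0.235 for Gpc4 against Alone (adjusted p = 0.72). Cask, a scaffold that binds syndecan tails, had 0.135 for TSP1 against Alone (adjusted p = 0.98), and Sdcbp, which encodes the syndecan adaptor syntenin, differed by 0.13 between the replicates (adjusted p = 0.53). Among other core proteins, Cd44 had -0.22 with Gpc4 and -0.235 with TSP1 against Alone (adjusted p = 0.75 and 0.98), and Hspg2, which encodes perlecan, had 0.125 and -0.085. Spock1, a testican, had -0.125 and Tgfbr3, which encodes betaglycan, 0.115 for Gpc4 against Alone (adjusted p = 0.88 for each). Nrp1, a semaphorin receptor, had 0.16 and Srgn, the proteoglycan of secretory granules, 0.215 for TSP1 against Alone (adjusted p = 0.98 for each). None of these passed. Tgfbr3 and Srgn were below the array medians on every array.

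Among the chondroitin sulfate core proteins, the small matrix proteoglycans Dcn and Bgn, known from connective tissue, were higher in replicate 2, by 1.54 (adjusted p = 0.010 from limma) and 0.77 (adjusted p = 0.0098). Dcn was at 7.48 and 6.41 with Gpc4, 5.88 and 4.48 with TSP1, and 7.75 and 5.59 in Alone. It was lowest with TSP1 in both replicates, and both TSP1 arrays and replicate 1 of Alone lay below the array medians, where values are not shown to be above background. The log2 fold change was 1.77 for Gpc4 against TSP1 (adjusted p = 1.00, 0.026 with the replicate block) and -1.49 for TSP1 against Alone (adjusted p = 0.98, 0.24 with the block). Vcan, a large aggregating proteoglycan, had -0.405 for Gpc4 against Alone and Acan, another, had 0.305 (adjusted p = 0.69 and 0.58). Between Gpc4 and TSP1, Vcan had -0.475 and Acan 0.485 (adjusted p = 0.93 and 0.27 from limma). Both Gpc4 arrays were below both TSP1 arrays for Vcan and above them for Acan. Of all probe sets, 15.5% lay below and 14.6% above in this way. Cspg5, a neuronal membrane proteoglycan, had -0.295 for Gpc4 against Alone (adjusted p = 0.72), and Ncan, the neurocan gene, had -0.235 for TSP1 against Alone (adjusted p = 0.98), below the array medians.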

How the data were processed

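All 6 arrays were used, grouped by their labels into Gpc4, TSP1 and Alone, with 2 arrays in each. The authors used the RMA method in Expression Console, the software of the array maker Affymetrix, whose version is not given in the sources used here. The deposited values are therefore log2 expression values, already corrected for background, normalized across arrays and summarised by probe set. They are given to 2 decimals, which blurs differences near 0.01. No further normalization or filter was applied.

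Groups were compared with limma 3.58.1 in R 4.3.3 (lmFit, then eBayes; 3 group means from all 6 arrays, 3 residual degrees of freedom), two-sided, with Benjamini-Hochberg adjustment over 31042 probe sets and a threshold of 0.05. Replicate 2 was compared with replicate 1 with the group as a covariate (2 residual degrees of freedom). This comparison and the block are the same fit. Both fits were tested on simulated data with a difference between replicates. There the fit with the block recovered more of the changed probe sets and made more false calls than its threshold allows. The simulated noise was independent between probe sets and arrays, with a spread estimated by the fit with the block. The rate of false calls in the deposited data was not measured. The number of arrays limits the precision, and the p-values measure the spread between these arrays.

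The numbers were taken as pairing arrays of a culture. The methods state 2 cultures. Arrays of the same number deviated together from their group means, with correlations of 0.37 (Gpc4 and TSP1), 0.29 (Gpc4 and Alone) and 0.35 (TSP1 and Alone).

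Symbols came from the platform annotation, in which 20826 probe sets have 1 symbol, 436 several and 9780 none. Genes of the lists qualified for naming if past the threshold, or otherwise as the 3 of a list with the largest difference of the same sign in both replicates, in each comparison. Most of these are given. Genes and lists were chosen with earlier results of these data known. Promoter windows came from RefSeq (GRCr8) and 7 of the 10 genes have one. Other coordinates are not given, since the array annotation used here states no build. Alternatives were median centring, quantile normalization, filters on dim probe sets, the replicate block, the methods' t-test, a trended variance, a fit to only the 2 groups compared, a mean over probe sets of a gene, and leaving out each array. Plots used Python 3.11.15 with matplotlib 3.10.9.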

Additional observations from a re-analysis of the deposited data

How the results depend on the processing

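In the 3 comparisons between groups, the number of the 19 probe sets past the threshold stayed at 0 under every alternative run, and no direction among called values turned. The number over all probe sets moved. For Gpc4 against Alone it was 26, and 64 with the replicate block, 13 with only the 2 groups compared, 1704 and 0 with the methods' t-test before and after Benjamini-Hochberg adjustment, 49 with a trended variance, and 2 to 13 whichever array was left out. For Gpc4 against TSP1 it was 19, and 31 with either filter on dim probe sets, 80 with the replicate block, 1433 and 0 with the methods' t-test before and after adjustment, 39 with a trended variance, and 2 to 13 without any 1 array. For TSP1 against Alone it was 0, and 4 with the replicate block, 1280 with the methods' unadjusted t-test and 0 to 1 without an array. Where an array was left out, the lone array of its group was assumed to vary like the others. The cause of these shifts was not tested. With the replicate block, the calls that changed among the genes named are those of Adam17 for Gpc4 against Alone (adjusted p = 0.033), of Postn for TSP1 against Alone (0.040) and of Adam17, Dcn (0.026 for each), Lum (0.0086), Postn (0.013) and Kdr (0.017) for Gpc4 against TSP1. In simulated data the fit with the block made more false calls than its threshold allows. Without the block, Adam17 also passed with either filter (limma adjusted p = 0.022 to 0.024 over both comparisons) and with the mean over probe sets (0.026 and 0.025). Against Alone it passed with quantile normalization (0.046). Adam17 did not pass with median centring, a trended variance, only the 2 groups compared or the methods' t-test after adjustment. For replicate 2 against replicate 1 the count over all probe sets was 174, and 264 with a trended variance. The count among the 19 was 3, and 4 with either filter, Gpc4 being the one added. Without the Gpc4, the TSP1 or the Alone group, both counts were 0. These fits left 1 residual degree of freedom, and the cause of the lower counts was not tested. Leaving out any 1 array, an alternative chosen after seeing the data, takes its group out as well. The arrays hold no detection call, so values below the array medians set a limit on Gpc3, on the Gpc4 gene in replicate 1 with TSP1 and in Alone, and on the dim probe sets of Gpc6, Sdc1, Sdc2 and Sdc3.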
